A study of Mus musculus with 18 samples.

Results

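CpG-poor domains are long stretches of a mammalian genome that hold few CpG dinucleotides. Here they are the mouse autosomal windows of 100 kb with the fewest CpGs. The autosomes of GRCm38 were cut into windows from position 1, the 24022 windows with at least 100 listed CpGs were ranked by that number, and the lowest 20% were taken. The rule uses only the positions of CpGs and no methylation value. It gave 4804 CpG-poor windows of 104 to 531 CpGs each, with a median of 463. The 4804 windows at the top of the ranking, called CpG-rich, held 1149 to 4072 CpGs, with a median of 1332, and serve as the comparison. At the edge of the ranking, 25 windows with 531 CpGs fell inside and 3 outside. The last window inside, chr17:39000001-39100000, had pooled levels of 79.6% with WT DNMT1 and 13.0% with W464A/W465A. The first window outside, chr17:53000001-53100000, had pooled levels of 69.9% with WT DNMT1 and 16.4% with W464A/W465A.

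The libraries are enhanced reduced representation bisulfite sequencing (eRRBS) of mouse embryonic stem cells, an assay in which DNA is cut at restriction sites and treated with bisulfite, so that methylated and unmethylated reads can be counted at each CpG. All cells of all 6 groups carry a knockout of Dnmt1 and were selected with puromycin for stable expression of DNMT1 from the pPyCAGIP vector, which has a strong general promoter and is not the native locus. The groups differ in the rescuing protein, which is WT DNMT1 or DNMT1 with tryptophans replaced by alanine, as W796A, W465A, W464A/W465A, W465A/W796A or W464A/W465A/W796A (the triple mutant). Each group has 3 biological replicates, which makes 18 libraries. Whether these are separate stable lines is not given in the labels, so a p-value measures only the spread between these libraries, which may be technical. Knockout cells with the empty vector and the amount of DNMT1 protein in each line were not analysed here.

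DNMT1 copies CpG methylation to the new DNA strand after replication. Its RFTS domain, which holds W464 and W465, binds ubiquitinated and methylated histone H3, and its first BAH domain, which holds W796, binds a methylated form of histone H4 found in heterochromatin. CpG-poor domains are A/T-rich and poor in genes, contact the nuclear lamina and replicate late in S phase. They are known for losing methylation ahead of the rest of the genome when maintenance falls behind, and are then called partially methylated domains. In such domains the CpGs with few neighbours and with A or T beside them are known to lose the most.

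Examples of sequence are given at the scale of a read. The stretches are 142 bases of the plus strand of GRCm38 (from the RefSeq assembly), with every CG in capitals, around the CpG of highest minimum coverage outside repeats. The windows are those with the largest falls of W464A/W465A below WT, then those with the smallest, then the CpG-rich window of middle rank. The labels large fall and small fall belong to the 100 kb window and not to the stretch shown. In the CpG-poor windows the central CpG was taken among those with at most 5 CpGs within 250 bp on either side, itself included.
chr1:112613297-112613438, large fall: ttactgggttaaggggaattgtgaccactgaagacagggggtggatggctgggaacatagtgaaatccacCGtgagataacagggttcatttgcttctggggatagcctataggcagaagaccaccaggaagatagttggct
chr2:99820822-99820963, large fall: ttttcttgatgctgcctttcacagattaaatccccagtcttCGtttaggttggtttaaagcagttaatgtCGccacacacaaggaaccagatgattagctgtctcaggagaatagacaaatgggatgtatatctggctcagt
chr5:58679285-58679426, large fall: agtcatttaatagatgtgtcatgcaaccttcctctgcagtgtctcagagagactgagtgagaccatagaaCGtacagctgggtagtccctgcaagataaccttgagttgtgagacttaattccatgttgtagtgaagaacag
chr8:20419418-20419559, small fall: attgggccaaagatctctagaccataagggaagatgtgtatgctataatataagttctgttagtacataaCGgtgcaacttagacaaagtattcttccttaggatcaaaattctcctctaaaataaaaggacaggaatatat
chr12:78364382-78364523, small fall: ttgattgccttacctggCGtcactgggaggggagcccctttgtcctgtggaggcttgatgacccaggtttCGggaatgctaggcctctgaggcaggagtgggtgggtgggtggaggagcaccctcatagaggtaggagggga
chr4:93361184-93361325, small fall: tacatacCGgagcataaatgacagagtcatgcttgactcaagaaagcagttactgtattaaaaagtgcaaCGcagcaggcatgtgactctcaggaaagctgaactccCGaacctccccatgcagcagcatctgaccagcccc
chr2:68348195-68348336, CpG-rich: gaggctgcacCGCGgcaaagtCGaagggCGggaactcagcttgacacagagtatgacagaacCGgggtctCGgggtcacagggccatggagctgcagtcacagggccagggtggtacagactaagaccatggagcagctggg

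The CpG-poor stretches hold 1 to 3 CpGs each, against 6 in the CpG-rich stretch, whose central CpG has 15 CpGs within 250 bp. The limit of 5 CpGs was applied only to the CpG-poor stretches, so this contrast is partly set by the choice. CpGs within that limit are also 18.2% of the shared CpGs of CpG-rich windows. At the central CpG of the chromosome 1 stretch (position 112613367), 19 of 29 WT reads were methylated, against 3 of 32 reads in W464A/W465A. At the central CpG of the chromosome 12 stretch (position 78364452) the counts were 58 of 79 WT reads and 11 of 58 W464A/W465A reads. This CpG lies in a window of small fall, and its own methylated share was lower in the mutant. The same holds for the other stretches from windows of small fall. The central CpG on chromosome 8 had 49 of 53 WT reads and 21 of 63 W464A/W465A reads methylated. That on chromosome 4 had 20 of 28 and 5 of 38. Single CpGs were read 5 to 24 times per library in the chromosome 1 stretch, which is too few for a level per CpG, so the results below sum reads over windows.

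The CpG-poor windows were thinly read by this assay. The shallowest library, WT replicate 3, had 59776439 CpG calls and the deepest, WT replicate 2, had 138978763. Of the 2197024 CpGs listed in CpG-poor windows, 396436 (18.04%) had at least 1 read in all 18 libraries, against 36.9% in CpG-rich windows. These shared CpGs had on average 5.29 to 12.1 reads per library in CpG-poor windows and 8.90 to 21.3 in CpG-rich windows. A CpG-poor window held a median of 81 shared CpGs, against 495. Of the 4804 members, 4751 held at least 10 shared CpGs and were analysed. The other 53 were not tested, and 20 of them held no shared CpG. The level of a window is the methylated reads over all reads summed over its shared CpGs, and the level of a library is the mean over windows.

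With WT DNMT1 the CpG-poor windows were highly methylated. The mean level over them was 59.8% in WT replicate 1, 77.5% in replicate 2 and 77.0% in replicate 3. With W796A it was 57.3%, 83.0% and 77.96%. The group means were 71.4% ± 10.1 (SD, n = 3) and 72.8% ± 13.6 (SD, n = 3), and the libraries overlapped, with replicate 1 the lowest of both groups.

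Every library with W465A lay below every WT library. The 3 W465A libraries had levels of 29.5%, 17.7% and 19.03%, with a mean of 22.1% ± 6.49 (SD, n = 3). The 3 W464A/W465A libraries had 13.2%, 18.95% and 12.4%, with a mean of 14.8% ± 3.60 (SD, n = 3). The W464A/W465A/W796A libraries had 15.4%, 17.4% and 13.6%, with a mean of 15.5% ± 1.93 (SD, n = 3). The W464A/W465A libraries overlapped those of both other groups, while the highest triple-mutant library (17.4%) lay just under the lowest W465A library (17.7%). The W465A/W796A libraries stood between them and WT, at 49.5%, 40.6% and 41.0%, with a mean of 43.7% ± 5.04 (SD, n = 3). The highest W465A library was at 29.5%, so the groups of W465A and W465A/W796A did not overlap. Relative to WT, the CpG-poor windows had 102% of the mean level with W796A, 30.9% with W465A, 20.7% with W464A/W465A, 61.2% with W465A/W796A and 21.6% with the triple mutant.

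**Figure D1:**
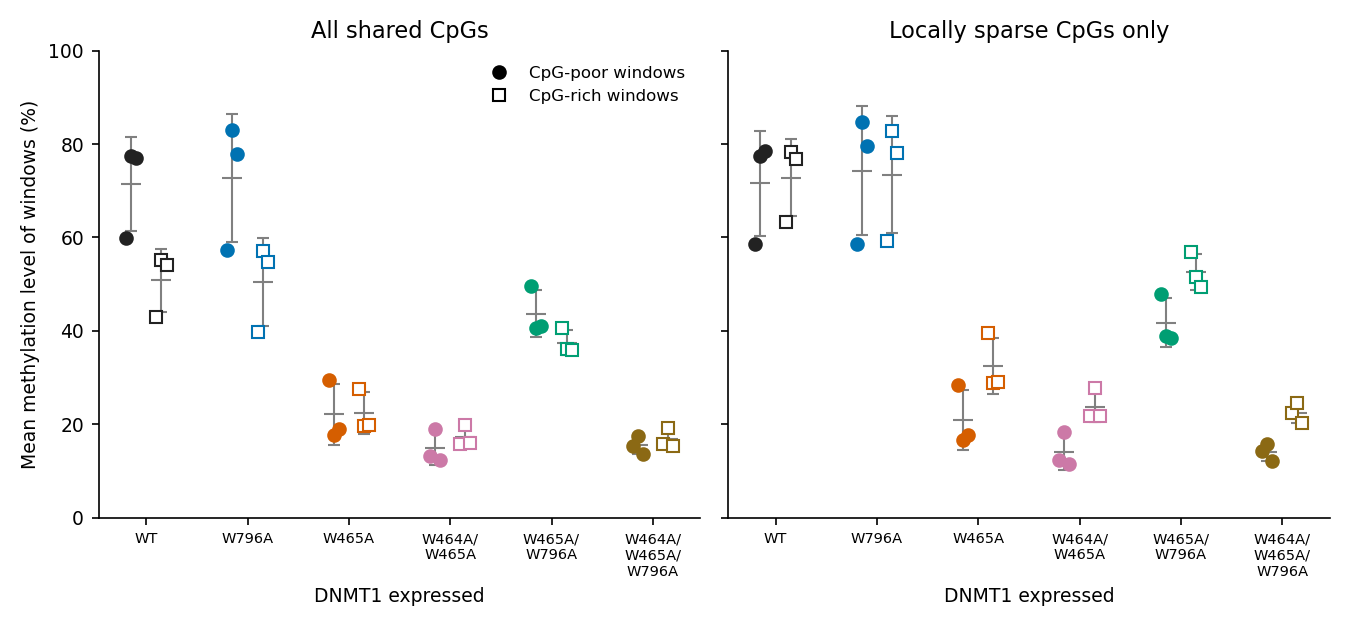
Mean methylation level (percent, vertical axis) of each of the 18 libraries by group, over CpG-poor windows (filled circles) and CpG-rich windows (open squares), at all shared CpGs (left) and at locally sparse CpGs (right), with grey bars for the mean and SD of 3 libraries. WT and W796A sit above the other groups in CpG-poor windows, and W465A/W796A (43.7%) lies between WT (71.4%) and W465A (22.1%).

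The CpG-rich windows differed less between groups. Their mean level was 50.8% ± 6.75 (SD, n = 3) with WT, 22.4% ± 4.52 with W465A, 17.2% ± 2.27 with W464A/W465A and 37.5% ± 2.70 with W465A/W796A. The WT level of CpG-poor windows was thus above that of CpG-rich windows, while with W464A/W465A it was below it in each of the 3 libraries. The level of CpG-poor windows as a percent of that of CpG-rich windows averaged 141% with WT, 144% with W796A, 116% with W465A/W796A, 97.4% with W465A, 92.3% with the triple mutant and 85.4% with W464A/W465A.

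Exact two-sided permutation tests over libraries were made on 10 differences of the mean level of CpG-poor windows, with Benjamini-Hochberg adjustment over the 10. A comparison of 3 libraries with 3 cannot give a p below 0.1. Against WT, the differences of -49.4 points with W465A, -56.6 with W464A/W465A, -27.7 with W465A/W796A and -56.0 with the triple mutant each reached this smallest exact permutation p of 0.1 (adjusted p = 0.111). They share the same WT libraries. W796A differed from WT by 1.32 points (exact permutation p = 0.8), and this difference was -4.50 without WT replicate 1 and 9.06 without W796A replicate 1. The labels were also permuted within background, which pools the same substitution over the backgrounds that hold it. By that test W465A lowered the level by 39.2 points (difference -39.2, exact permutation adjusted p = 0.025) and W464A/W465A by more (difference -57.0, adjusted p = 0.025). Adding W464A to a protein that already had W465A changed the level by -17.8 points (exact permutation adjusted p = 0.0333), and this call was lost without W464A/W465A replicate 1 or 3 (adjusted p = 0.0625). W796A changed it by 7.86 points over its 3 backgrounds, which did not pass (exact permutation adjusted p = 0.111), but passed at 10.4 points without W796A replicate 1 (adjusted p = 0.03). All 5 mutants together lay 37.7 points below WT (difference -37.7, exact permutation adjusted p = 0.0398), a call lost without any 1 of the WT libraries (adjusted p = 0.111) and without W464A/W465A replicate 1 or 3 (adjusted p = 0.0625).

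The differences between group means are given for each background of a substitution. W464A/W465A changed the mean of CpG-poor windows by -56.6 points from WT and by -57.3 points from W796A. W465A changed the mean by -49.4 points from WT and by -29.1 points from W796A. W796A changed the mean by 21.6 points over W465A, against 1.32 points over WT and 0.64 points over W464A/W465A. Adding W464A to W465A gave -7.26 points, and adding it to W465A/W796A gave -28.2 points. In CpG-rich windows the corresponding W796A differences were 15.1, -0.32 and -0.44 points. These are differences of group means, and their dependence on background was not tested in CpG-poor windows.

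CpG-poor and CpG-rich windows also hold different kinds of CpG. A CpG was called locally sparse when the reference has 1 to 5 CpGs within 250 bp on either side, itself included. Sparse CpGs were 287794 of the shared CpGs of CpG-poor windows (72.6%) and 446597 of those of CpG-rich windows (18.2%). Comparing the windows at sparse CpGs alone sets CpGs of like neighbourhood side by side.

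At sparse CpGs the WT levels of the 2 kinds of window differed by less than the replicate SD. It was 58.6%, 77.5% and 78.6% in CpG-poor windows and 63.3%, 78.4% and 76.7% in CpG-rich windows, with means of 71.6% ± 11.2 and 72.8% ± 8.30 (SD, n = 3). With W465A the sparse CpGs of CpG-poor windows were at 28.3%, 16.6% and 17.7%, and those of CpG-rich windows at 39.5%, 28.9% and 29.0%. The poor value was the lower in each of the 3 libraries. With W464A/W465A the values were 12.3%, 18.3% and 11.4% in CpG-poor windows and 21.9%, 27.7% and 21.7% in CpG-rich windows. With W465A/W796A they were 47.9%, 38.9% and 38.5% against 57.0%, 51.6% and 49.4%. With the triple mutant they were 14.3%, 15.7% and 12.01% against 22.3%, 24.5% and 20.3%. The poor value was thus below the rich value in all 12 libraries that carry W465A.

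Expressed as a ratio, sparse CpGs of CpG-poor windows had 98.0% ± 4.92 of the level of those of CpG-rich windows with WT and 101% ± 1.79 with W796A (SD, n = 3). The ratio was 63.5% ± 7.41 with W465A, 58.2% ± 6.98 with W464A/W465A, 62.5% ± 2.90 with the triple mutant and 79.1% ± 4.42 with W465A/W796A. The lowest ratio among the 6 libraries without W465A was 92.7%, in WT replicate 1, and the highest among the 12 with it was 84.01%, in W465A/W796A replicate 1. The ratios of these 2 sets of libraries did not overlap.

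The contrast between CpG-poor and CpG-rich windows was tested on each library's own ratio and difference, by exact permutation within background with Benjamini-Hochberg adjustment over the 40 contrasts made. At sparse CpGs W465A changed the log2 ratio of poor to rich by -0.49 and the difference by -11.1 points (adjusted p = 0.0182 for both). W464A/W465A changed the log2 ratio by -0.73 and the difference by -8.92 points (adjusted p = 0.0182 for both). All 4 calls held in every leave-one-out analysis, but with the replicate number as a block none passed (adjusted p = 0.072 for each), where the smallest exact permutation p is 0.03125. They also held with CpGs of at least 5 reads, but only 11205 sparse CpGs of CpG-poor windows were left, against 287794. The changes were smaller there, at -6.15 (W465A) and -4.85 points (W464A/W465A) and -0.25 and -0.35 in log2. With at least 10 reads the log2 changes were -0.36 and -0.35. The size of the ratio thus depends on including CpGs with few reads. W796A changed the log2 ratio by 0.16 (adjusted p = 0.035) and the difference by 1.40 points (adjusted p = 0.0993), and the call on the log2 ratio was lost in 8 of 18 leave-one-out analyses. This log2 change averages 0.045 over WT, 0.32 over W465A and 0.11 over W464A/W465A. For adding W464A the log2 ratio changed by -0.23 (adjusted p = 0.0397) and the difference by 2.16 points (adjusted p = 0.0182), so that the scales gave opposite signs. The first of these calls was lost in 10 of 18 leave-one-out analyses, and the other without replicate 1 of the triple mutant. The log2 change averages -0.12 over W465A and -0.34 over W465A/W796A, and the change in points 1.79 and 2.53. At all shared CpGs the changes were larger on the scale of points, at -18.5 for W465A and -23.3 for W464A/W465A (adjusted p = 0.0182 for both), where WT levels themselves differ between the windows.

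**Figure D2:**
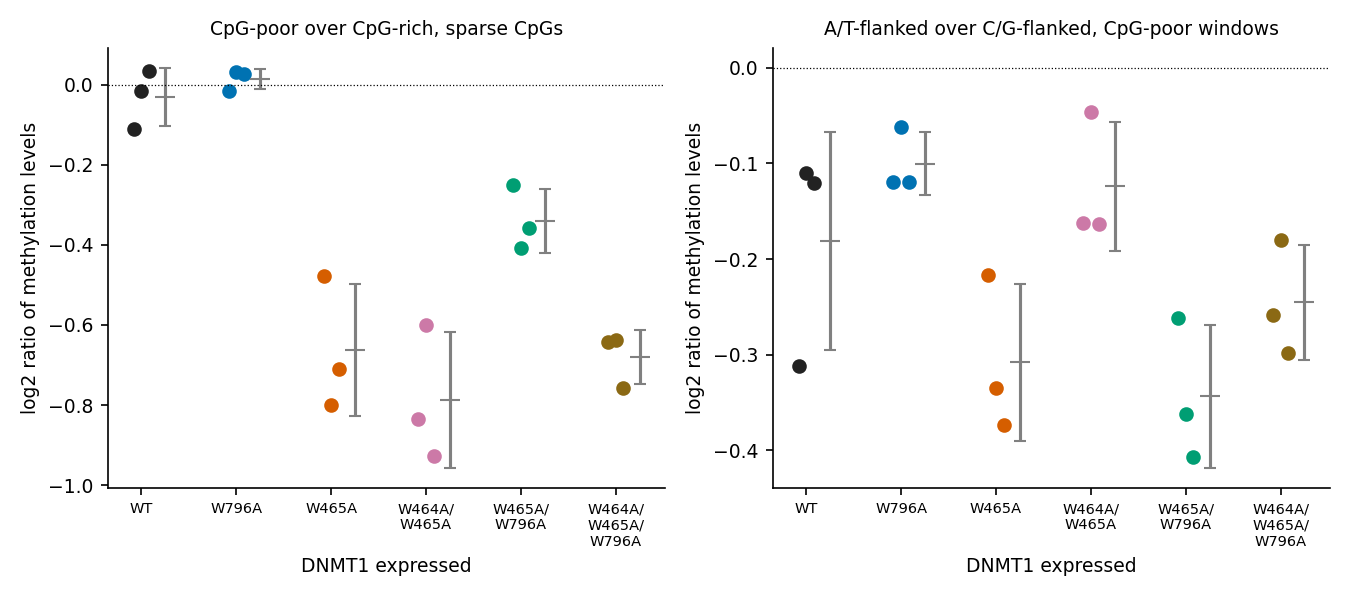
Per-library log2 ratio (vertical axis) of sparse CpGs in CpG-poor over CpG-rich windows (left), and of A/T-flanked over C/G-flanked sparse CpGs inside CpG-poor windows (right), for the 3 libraries of each group with the mean and SD. On the left the 12 libraries with W465A all lie below the 6 without it.

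The difference from WT was graded over the whole range of CpG number. The 24022 windows were split into 5 classes of near-equal size by their number of CpGs, of which the lowest holds the CpG-poor set and 1 window more. At sparse CpGs the WT level ran only from 71.6% to 74.2% over the classes. The W465A level as a percent of WT was 29.2% in the CpG-poor class and 34.1%, 39.7%, 43.7% and 44.6% in the classes above it. The W464A/W465A level was 19.5% of WT in the CpG-poor class and 32.6% in the CpG-rich class. For W465A/W796A these values were 58.3% and 72.3%, and for the triple mutant 19.6% and 30.8%. W796A stayed between 101% and 104% of WT.

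The gradient went on inside the CpG-poor windows. When the members themselves were split into 5 classes, sparse CpGs of the windows with the fewest CpGs (109 to 416) were at 26.9% of the WT level with W465A. Those with the most (505 to 531) were at 31.0%. The classes between them had 28.5%, 29.1% and 30.4%, in the order of CpG number. With W464A/W465A the range was 17.8% to 20.9%, and with W465A/W796A 56.2% to 59.9%. No test was made of these gradients, since windows are not replicates.

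**Figure D3:**
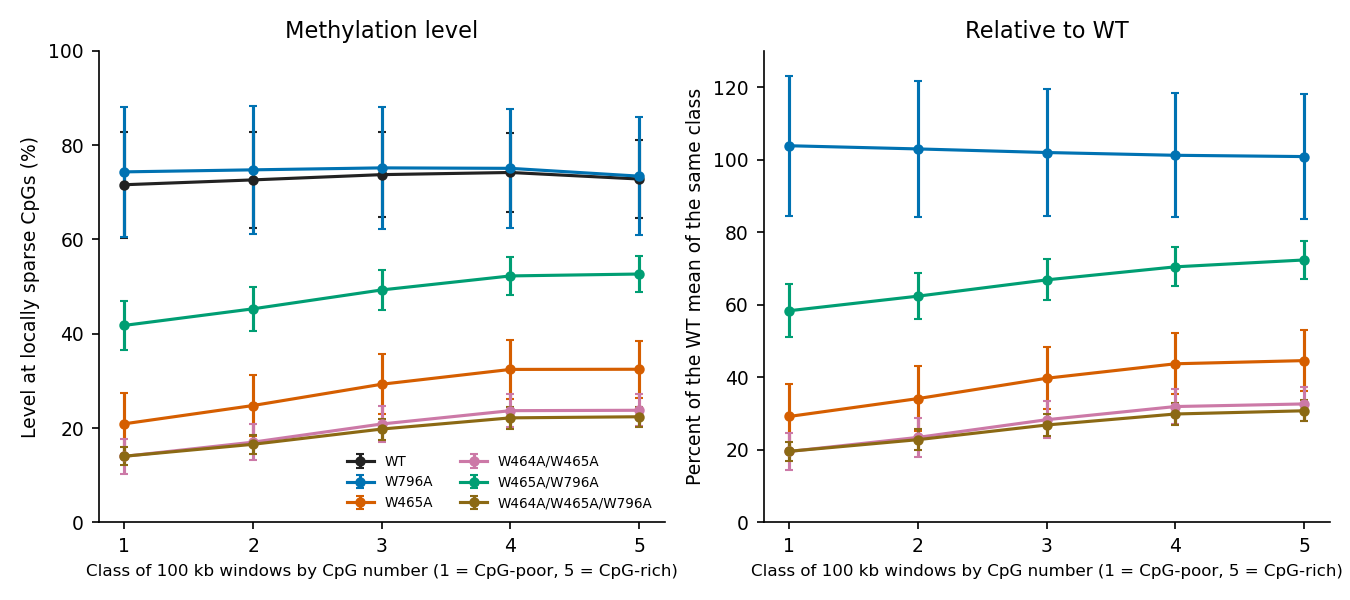
Sparse CpG level in percent (left) and as a percent of the WT level (right) for the 6 groups, over 5 classes of all windows from the CpG-poorest (1) to the CpG-richest (5), as mean and SD of 3 libraries. The WT level runs only from 71.6% to 74.2%, while the W465A curve as a percent of WT climbs from 29.2% to 44.6%.

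Each window was then tested by itself with a quasi-binomial logistic model of its summed reads, fitted to all 18 libraries and adjusted over the 23867 windows tested. Calls needed an adjusted p under 0.05 together with 10 or more points between pooled levels. W465A was lower than WT in 4746 of 4751 CpG-poor windows (99.9%), W464A/W465A in 4748 and the triple mutant in 4748. Among all windows 99.7%, 99.8% and 99.8% were called lower in these comparisons, so the members' share is close to the background. None was called higher. W465A/W796A was lower than WT in 4607 CpG-poor windows (96.97%), against 90.8% of all windows and 80.9% of CpG-rich windows. These shares depend on the 10-point minimum, since the median difference over CpG-rich windows was -13.9 points. By the model's unadjusted p under 0.05 alone, 4620 of 4751 CpG-poor and 4673 of 4799 CpG-rich windows differed. Without WT replicate 2 the comparison of W465A/W796A with WT called no CpG-poor window, and with at least 10 reads per CpG it called 51.1%. The median difference over members was -51.6 points with W465A, -59.0 with W464A/W465A and with the triple mutant, and -29.2 with W465A/W796A. Over all windows it was -42.5, -50.7, -51.7 and -22.0 points for W465A, W464A/W465A, the triple mutant and W465A/W796A. All these comparisons share the WT libraries.

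W796A alone gave no call against WT in either direction, among members or among all windows (percent called 0), and 14 members had an unadjusted p under 0.05. On simulated data the model recovered 0 of 100 windows lowered by 20 points and 22 of 100 lowered by 40 in this comparison, so changes of this size in some windows could be missed. The simulated windows were drawn independently, without shifts shared by a whole library. No label pairs the libraries, but deviations of same-numbered WT and W796A libraries correlated (r = 0.449, 0.372 and 0.211). A block for the number, in these groups alone, was therefore tried after seeing the data. With it the model called 3 CpG-poor windows lower and 0 higher, of 23 windows in all. The median difference of W796A from WT was 0.15 points over CpG-poor windows and -0.66 over all windows.

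Among mutants, W465A/W796A was higher than W465A in 3764 CpG-poor windows (79.2%), against 87.5% of all windows and 84.8% of CpG-rich windows. The median difference over members was 22.0 points, against 19.6 over all windows and 15.4 over CpG-rich windows. Its 5% to 95% range over members was 15.8 to 27.6 points. The model's unadjusted p was under 0.05 in 3893 of 4751 CpG-poor and 4751 of 4799 CpG-rich windows. A CpG-poor window had a median of 541.5 reads per library, against 5564. Whether the lower share of members called follows from this depth was not tested. All 3 W465A/W796A libraries lay above all 3 W465A libraries in 4638 members (97.6%), against 98.9% of all windows. The calls rest on few libraries, since leaving out W465A replicate 3 or W465A/W796A replicate 1 gave a share of 0%, and the share was 24.4% without W465A replicate 2. The triple mutant was lower than W465A/W796A in 4678 members (98.5%), against 97% of all windows. W464A/W465A was called different from W465A in no member, with 7 at an unadjusted p under 0.05 (289 of all 23867 windows, of which none was called), although its 3 libraries lay below all 3 W465A libraries in 1185 members (24.9%; 33.6% of all windows). The triple mutant was called different from W464A/W465A in no member, with 1 at an unadjusted p under 0.05 (4 of all windows, of which none was called).

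Nearly all windows of the genome were lower in these mutants, so the model was also fitted relative to each library's own level, with the logit of its pooled level over the tested windows as an offset. A call then needs a difference of at least 10 points beyond the library's. With WT DNMT1 the CpG-poor windows were at 71.4% and the CpG-rich windows at 50.8%. A fall of equal proportion is thus larger in points in CpG-poor windows. The pooled level counts reads, of which a CpG-rich window had a median of 5564 per library and a CpG-poor window 541.5. How far the shares below follow from these 2 features was not tested. W465A was relatively lower in 4393 CpG-poor windows (92.5%), against 50.5% of all windows and 4.31% of CpG-rich windows. W464A/W465A was relatively lower in 4466 CpG-poor windows (94.0%; 60.9% of all, 15.8% of CpG-rich) and the triple mutant in 4394 (92.5%; 61.1% of all, 17.0% of CpG-rich). W465A/W796A was relatively lower in 3458 (72.8%; 26.6% of all), against 3 CpG-rich windows (0.0625%). Relatively higher calls were few among members, at 1 window with W465A, 2 with W464A/W465A, 3 with the triple mutant and 1 with W465A/W796A (5.5%, 8.22%, 8.13% and 0.507% of all windows). Among CpG-rich windows they numbered 775 (16.1%), 1021 (21.3%), 1065 (22.2%) and 45 (0.938%) in the same order. The median relative difference over members was -19.2 points with W465A, -21.5 with W464A/W465A, -20.7 with the triple mutant and -13.0 with W465A/W796A, while over CpG-rich windows it lay between 2.07 and 2.98 points. Over all windows it was -10.2, -13.2, -13.5 and -5.74 points in the same order. For W796A no CpG-poor window was called in either direction (0% of all windows lower, 0.0126% higher). Relative to the library level no CpG-poor window was called higher in W465A/W796A than in W465A, and of all windows 0% was called higher.

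The CpG-poor windows were alike in WT. Their pooled WT level had a median of 74.9% and a 5% to 95% range of 61.1% to 80.6%, with an SD among windows of 7.05 points, against 16.8 points among CpG-rich windows. Only 68 of the 4751 (1.43%) had a WT level under 50%, against 2324 CpG-rich windows (48.4%). In the 4 mutants that carry W465A the members lay in lower ranges. Their 5% to 95% range was 14.9% to 30.5% with W465A, 9.45% to 22.1% with W464A/W465A, 34.0% to 53.8% with W465A/W796A and 9.81% to 21.9% with the triple mutant. With W465A/W796A, 3926 members (82.6%) were under 50%, against 3739 CpG-rich windows (77.9%).

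**Figure D4:**
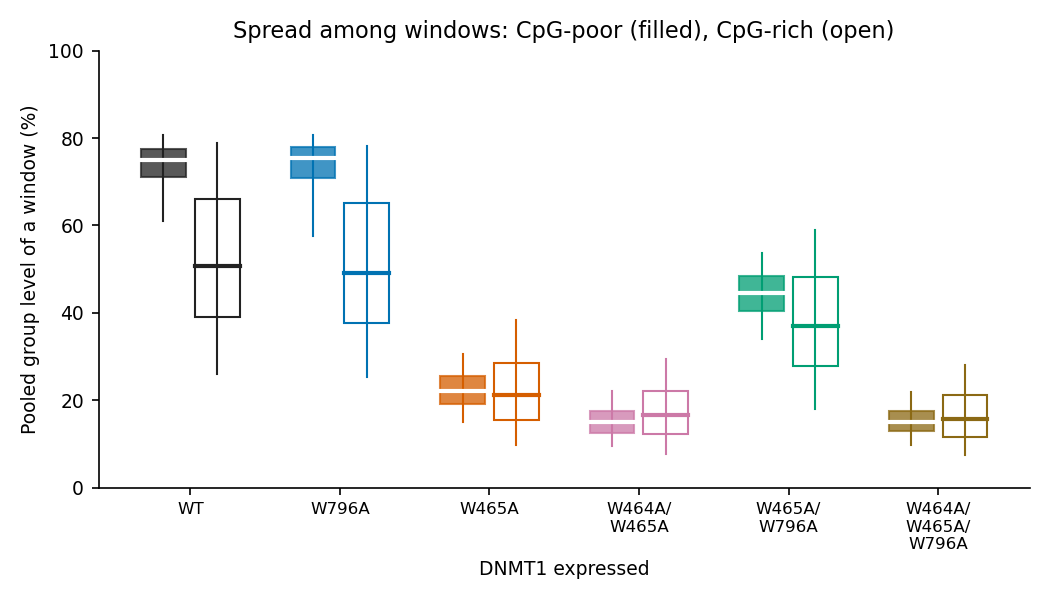
Pooled group level of single windows (percent, vertical axis) by group, for the analysed CpG-poor windows (filled) and CpG-rich windows (open). Boxes give the median and quartiles and whiskers the 5% to 95% range, and the WT box of CpG-poor windows is the narrower, around 74.9%.

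The windows with the largest and smallest falls were named by rule from members with at least 30 shared CpGs and not on chromosome 18, and their values are descriptions. The largest fall from WT to W464A/W465A in pooled level was in chr1:112600001-112700000, an intergenic window whose nearest protein-coding gene, Dsel (a dermatan sulfate epimerase-like gene), lies 735083 bp away. Its 3 WT libraries had levels of 70.5%, 87.8% and 85.0%. Its W465A libraries had 26.0%, 15.4% and 16.5%, its W464A/W465A libraries 6.498%, 17.95% and 6.91%, and its W465A/W796A libraries 47.9%, 44.9% and 50.6%. The pooled difference was -72.2 points. Of its reads, 46.8% fell on 14 CpGs with more than 20 CpGs within 250 bp and 31.9% on sparse CpGs. Its sparse CpGs were at 74.6% with WT and 10.1% with W464A/W465A. Next came chr2:99800001-99900000, with 49 shared CpGs and -72.1 points, where the 3 WT libraries had 68.3%, 83.97% and 91.4%. The third was chr5:58600001-58700000, with -71.3 points, which lies 466771 bp from Pcdh7, a protocadherin of neural cell adhesion. All 3 windows have no protein-coding gene. Those on chromosomes 2 and 5 held no CpG with more than 20 CpGs within 250 bp.

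The smallest falls were in windows with a low level already with WT DNMT1. In chr8:20400001-20500000 the 3 WT libraries had 7.16%, 10.6% and 8.23%, and W464A/W465A lay 6.44 points lower (difference -6.44). Of its reads, 87.4% fell on 60 CpGs with more than 20 CpGs within 250 bp. Its sparse CpGs were at 63.3% with WT and 16.0% with W464A/W465A. In chr4:93300001-93400000, which holds the short gene Tusc1, 87 such dense CpGs took 85.1% of the reads. The WT libraries were at 7.98%, 11.6% and 12.3%, but the sparse CpGs of this window were at 67.8% with WT and 10.8% with W464A/W465A. The window chr12:78300001-78400000 lies inside Gphn, which encodes the scaffold protein gephyrin of inhibitory synapses. It held no such dense CpG, had 4950 to 12614 reads per library, and its WT libraries were at 8.80%, 11.8% and 10.1%. Its 38 CpGs with 6 to 20 CpGs within 250 bp took 92.1% of the reads, and 1 of its CpGs took 9.76%. Its 79 sparse CpGs averaged 75.9% ± 9.47 (SD, n = 3) with WT and 19.9% ± 5.03 with W464A/W465A. These 2 windows on chromosomes 8 and 12 also had the lowest WT levels of all eligible members.

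Among members with at least 30 shared CpGs and not on chromosome 18, the highest pooled WT levels were 84.7% in chr5:6800001-6900000, inside Zfp804b, a zinc finger gene, and 84.6% in chr1:110700001-110800000, 88326 bp from the cadherin gene Cdh19. Among the same members, the rises from W465A to W465A/W796A were largest in chr14:94900001-95000000, at 36.7 points. Of the reads in this window, 40.1% fell on 10 CpGs with more than 20 CpGs within 250 bp. In chr3:24800001-24900000, inside Naaladl2, the rise was 35.7 points. The 3 WT libraries there had 75.6%, 84.3% and 79.7%, the W465A libraries 26.7%, 20.6% and 21.5%, and the W465A/W796A libraries 60.7%, 61.6% and 54.4%. The next was chr16:62100001-62200000, at 33.9 points. Neither this window nor that on chromosome 3 held such dense CpGs.

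Within CpG-poor windows the sparse CpGs were split by the bases beside them. Sparse CpGs with A or T on both sides numbered 110023 and those with C or G on both sides 31237, of which 1.33% lay in the MspI site CCGG. Over the autosomes 7.45% of listed CpGs but 0.148% of shared CpGs lie in CCGG, so CpGs of the MspI sites themselves hardly enter any level here. With WT DNMT1 the A/T-flanked CpGs were at 68.4% ± 12.5 and the C/G-flanked at 77.0% ± 8.61 (SD, n = 3). With W465A they were at 19.7% ± 6.33 and 24.2% ± 6.30, with W465A/W796A at 38.5% ± 5.55 and 48.6% ± 4.47, and with W464A/W465A at 13.7% ± 3.77 and 14.8% ± 3.32. The mean log2 ratio of A/T-flanked to C/G-flanked was -0.18 with WT, -0.10 with W796A, -0.31 with W465A, -0.34 with W465A/W796A, -0.12 with W464A/W465A and -0.25 with the triple mutant. The A/T-flanked mean was the lower in all 18 libraries. W465A changed this log2 ratio by -0.19 and adding W464A changed it by 0.14 (exact permutation, adjusted p = 0.025 for both), while W464A/W465A gave -0.04 (adjusted p = 0.527), the mean of 0.057 over WT and -0.15 over W796A. In points, W464A/W465A narrowed the difference by 5.04 (adjusted p = 0.0182) and W465A gave -0.49 (adjusted p = 0.805). The latter averages opposite signs, 4.11 points over WT and -5.09 points over W796A. The call of W465A on the log2 ratio was lost with at least 10 reads per CpG and without W465A/W796A replicate 3. That of adding W464A was lost at 10 reads and in 4 of 18 leave-one-out analyses.

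Repeat content and local density were described in the same way. Of the sparse CpGs in CpG-poor windows, 72125 lay in repeat-masked sequence and 215669 outside it. Their WT means were 72.1% and 72.04%, their W465A means 21.4% and 21.8%, and their W464A/W465A means 14.2% and 14.7%. Of 10 contrasts between them only the log2 ratio with W464A/W465A passed, at -0.04 (exact permutation, adjusted p = 0.025), and its sign turned with at least 10 reads per CpG. CpGs of CpG-poor windows with 6 to 10 CpGs within 250 bp were at 76.3% with WT, 27.4% with W465A and 18.5% with W464A/W465A. The 12049 CpGs with over 20, which are 3.04% of the shared CpGs there and 77.3% repeat-masked, were at 42.0% ± 10.3 with WT and 8.86% with W464A/W465A. CpGs of that density in CpG-rich windows were 3.98% masked and at 5.91% ± 1.47 with WT, so the dense CpGs of the 2 kinds of window differ in both respects.

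CpG-poor windows are short of genes and of G and C. Their median GC content was 37.5%, against 46.9% in CpG-rich windows, and their median repeat-masked share 40.9%, against 25.8%. They held 0.306 starts of protein-coding genes per window, against 2.02, and 3202 members (66.7%) overlapped no protein-coding gene body. Another 744 (15.5%) lay wholly inside a gene body. Of 20807 protein-coding genes, 1471 (7.07%) start in a CpG-poor window. Chemoreceptor families made up much of these. Of 1128 genes for olfactory receptors (Olfr), 626 (55.5%) start there, as do 131 of 329 genes for vomeronasal receptors (39.8%). Of 39 Hox genes, which pattern the embryo, and 78 genes for ribosomal proteins, none does. Among 95 cadherin and protocadherin genes 5 do, and among 385 zinc finger genes named Zfp 10 do.

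The methylation level in the mutants that carry W465A differed by few points with this gene content. In the 3182 members with no gene body, sparse CpGs were at 71.8% with WT and 20.6% with W465A, which is 28.7% of WT. In the 738 members wholly inside a gene body the values were 71.6% and 21.9%, or 30.6% of WT. In the 227 members with the start of an olfactory or vomeronasal receptor gene they were 70.4% and 19.7%, or 28.0% of WT. With W464A/W465A the same 3 sets had 19.1%, 21.01% and 18.1% of WT, and with W465A/W796A 58.0%, 59.5% and 56.6%. In each of the 3 libraries of W465A, of W464A/W465A and of W465A/W796A, the sparse CpG level was lowest in the members with receptor genes and highest in those inside gene bodies. No test of these differences was made.

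Across the 4733 members with enough sparse CpGs, Spearman's rho between the group level and GC content was 0.02 with WT, 0.40 with W465A, 0.34 with W464A/W465A and 0.19 with W465A/W796A. The number of shared sparse CpGs, a measure of depth, had rho of 0.30 with the WT level and 0.43 with the W465A level. The windows share libraries, and neighbours share sequence, so these are descriptions. By chromosome, the W465A level ran from 27.6% of the WT level in members of chromosome 16 to 31.3% in those of chromosome 13. The share of windows that are CpG-poor ran from 9.26% on chromosome 19 to 26.0% on chromosome 3.

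CpG-poor windows lie in runs. The 4804 members form 1818 runs of adjacent windows, 871 of them a single window, and 3933 members (81.9%) lie in runs of at least 2. There were 53 runs of at least 10 windows, with 708 members. The longest, chr1:114200001-116600000, has 24 windows and covers Cntnap5a, a gene of the contactin-associated family of neural adhesion proteins. Its mean level was 69.8% ± 9.63 with WT, 20.6% ± 6.14 with W465A, 13.7% ± 3.90 with W464A/W465A, 42.0% ± 5.29 with W465A/W796A and 14.6% ± 1.14 with the triple mutant (SD, n = 3). The next, chr1:122800001-125100000, has 23 windows and overlaps Dpp10, which encodes a modulator of potassium channels. It was at 67.9% with WT and 12.5% with W464A/W465A. The run chr1:98700001-100700000, with 20 windows and Cntnap5b, was at 70.1% and 14.1%.

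Some genic members lie in long genes for neural adhesion, synapses and signalling. A list of 28 long genes, which holds such genes and others (Fhit, Macrod2 and Wwox among them), was looked up, and 25 had CpG-poor windows in their body. Of the listed genes of at least 500 kb, 23 of 25 had such windows, against 82 of the 193 other protein-coding genes of at least 500 kb (42.5%). Lengths above 500 kb were not matched between these sets, and the list was made with earlier results known. Of the 28 listed genes, 3 (Cdh10, Robo1 and Wwox) had no CpG-poor window. Cntnap2 (chr6:45059357-47304213), which encodes a contactin-associated adhesion protein of axons, spans 24 windows, of which 20 are CpG-poor. Those windows were at 69.6% ± 11.02 with WT, 20.3% ± 6.88 with W465A and 41.7% ± 5.93 with W465A/W796A (SD, n = 3). Lrp1b, of the LDL receptor family, has 16 of 22 windows in the CpG-poor set, Lrrc4c, a ligand of netrin-G, 12 of 14, and Csmd3 11 of 13. Over the 25 genes the level as a percent of WT ranged from 24.8% (Csmd3) to 38.7% (Fhit) with W465A. It ranged from 16.2% (Pcdh7) to 30.7% (Magi2) with W464A/W465A and from 56.0% (Kcnip4) to 67.4% (Magi2) with W465A/W796A. Of the 192 CpG-poor windows in these genes, 192 (100%) were called lower with W465A than with WT, against 99.9% of all CpG-poor windows and 99.7% of all windows. With W465A/W796A 188 (97.9%) were called lower than with WT, against 96.97% and 90.8%. W465A/W796A was called higher than W465A in 146 of them (76.0%), against 79.2% of CpG-poor windows and 87.5% of all windows, a call that over all CpG-poor windows fell to 0% without W465A replicate 3 or W465A/W796A replicate 1. These shares are near those of the other members. The difference between those last 2 groups ranged from 18.3 points in Lsamp, a neural adhesion gene, to 23.8 points in Magi2, which encodes a synaptic scaffold.

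**Figure D5:**
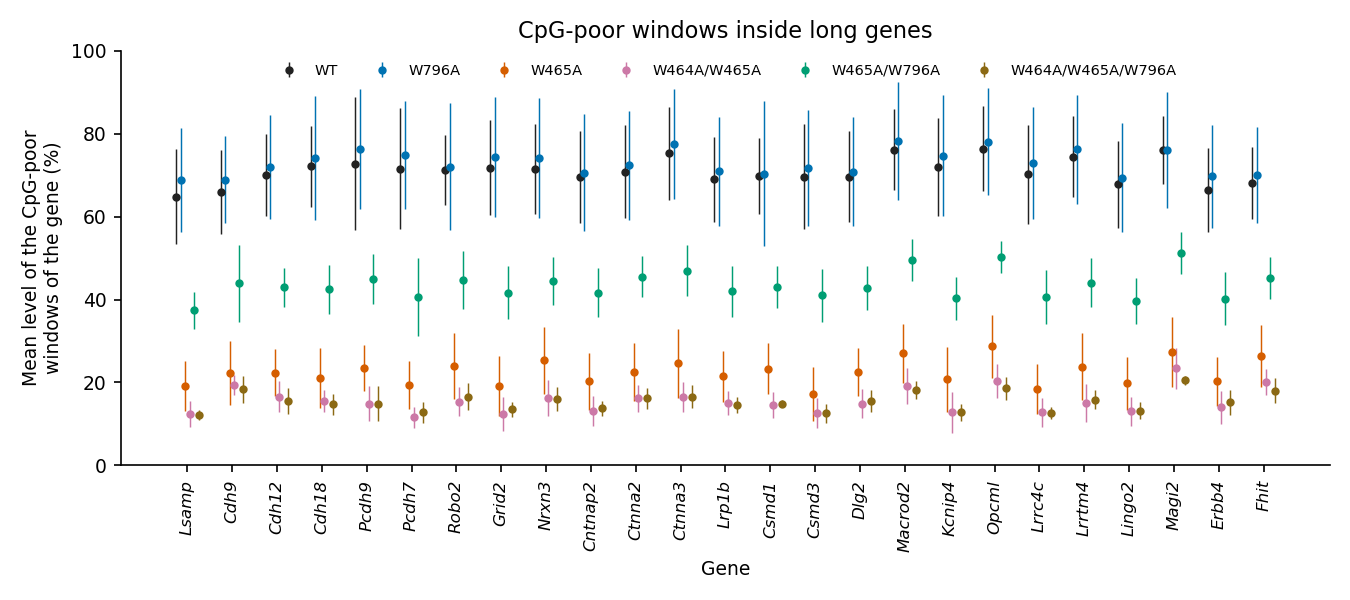
Mean level (percent) of the CpG-poor windows inside each of 25 long genes, for the 6 groups, as mean and SD of 3 libraries. In every gene the W465A/W796A mean lies between those of WT and W465A, as in Cntnap2 at 41.7% against 69.6% and 20.3%.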

How the data were processed

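Each of the 18 libraries has a deposited count of methylated reads and a deposited count of all reads per CpG, which the authors made from eRRBS reads without normalization or pooling of replicates. The submitters' processing notes name cutadapt 1.2.1, Bismark 0.18.1 and Bowtie 1.2 and the builds mm10 and GRCm38, with no role or order. Per the labels' protocols the enzymes were MspI, BfaI and MseI, so CpG-poor sequence enters through A/T-rich cut sites. Trimming settings, duplicate removal and bisulfite conversion rates are not given in the sources used here, and reads are not independent molecules, so the replicates set the precision.

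All 36 count columns were used. The 20383406 listed autosomal CpGs in the ranked windows sit at CpGs of the GRCm38 reference on all 19 autosomes, and 6054394 of them had at least 1 read in all 18 libraries. Sequence was read from the RefSeq assembly GRCm38 and protein-coding genes from GENCODE annotation of the same build. No 2 libraries had equal coverage at more than 10.4% of CpGs, so none was counted as a duplicate. Levels were computed per window with at least 10 shared CpGs. Tests were exact two-sided permutations of library values, with 10 for the mean level and 40 for contrasts (4 contrasts, 2 scales, 5 effects). The window model was a quasi-binomial logistic fit with 12 residual degrees of freedom. Its overdispersion was squeezed across windows as in limma (prior 38.1 with 7.11 degrees of freedom), followed by an F test and Benjamini-Hochberg adjustment. It was tested on simulated data of 23867 windows for W796A against WT, where 5.64% of unchanged windows had an unadjusted p under 0.05 and 1 was called. Those windows were drawn independently, whereas real libraries differed as a whole, as WT replicates 1 and 2 at 59.8% and 77.5% in CpG-poor windows. In the real comparison 100 of 23867 windows had an unadjusted p under 0.05. The simulation thus cannot show that the p-values are calibrated for these data. Python 3.11.15, numpy 2.4.6 and scipy 1.17.1 were used, and limma 3.58.1 in R 4.3.3 as an alternative.

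The members, gene lists and tests were chosen with earlier results of these data known. Named windows, among members with at least 30 shared CpGs and not on chromosome 18, were the 3 largest and 3 smallest falls in W464A/W465A against WT, the 3 largest rises of W465A/W796A over W465A, the 2 lowest and 2 highest WT levels, the 3 longest runs and the windows at the edge of the ranking. Named genes are a list of 28 long genes; other genes of the list are not reported here. Of 15 pairs of groups, only WT and W796A had deviations from the group means over CpG-poor windows that correlated above 0.1 in every same-numbered pair (r = 0.449, 0.372 and 0.211). No label says what same-numbered libraries share. The alternatives tried were 5 or 10 reads per CpG, at least 1 or 30 shared CpGs per window, 10% of windows, a grid shifted by 50 kb, windows with over 10% N, CCGG sites or the top 0.1% of coverage left out, pooled reads, each CpG counted equally, 1 to 2 CpGs within 250 bp, a block for the replicate number, and each library left out. For the window model they were also limma, only the groups compared, no squeezing, an offset for the library level and a 25-point or no minimum. Sparse A/T-flanked CpGs only, sparse unmasked CpGs only, a block in WT and W796A alone, and the count of other genes of at least 500 kb were chosen after seeing the data.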

Additional observations from a re-analysis of the deposited data

How the results depend on the processing

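Depth limits these results. At least 5 reads in every library left 31420 of the 396436 shared CpGs of CpG-poor windows and 10 reads left 5970, of which 736 were sparse. The repeat-masked share rose from 31.4% to 53.2% and 69.3%. Of the 120 values of the mean level under alternatives other than leaving out a library, 114 kept their direction and side of the threshold, as did 438 of 500 contrasts and 136 of 145 shares of called windows. The causes of the changes were not tested. The W465A and W464A/W465A contrasts of CpG-poor with CpG-rich windows at sparse CpGs kept their calls under all alternatives run except the replicate block.

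With at least 5 reads, W796A minus WT turned to -2.40 points, the log2 contrast of poor and rich windows over all mutants passed at -0.29, and its sparse contrast in points did not at -3.61. The contrasts of masked and unmasked CpGs in points turned to 0.20, 0.42, 0.80, 0.38 and -0.28 (all mutants, W465A, W464A/W465A, added W464A, W796A). With at least 10 reads, W796A minus WT was -4.82. The log2 contrasts of poor and rich windows were -0.34 for all mutants (now passing), -0.23 for W465A and 0.17 for W796A (both no longer), and at sparse CpGs 0.012 for added W464A and -3.54 points for all mutants. The log2 contrasts of A/T-flanked with C/G-flanked CpGs were -0.099 for W465A, 0.032 for W464A/W465A and 0.13 for added W464A. Masked contrasts turned to 2.58, 3.13, 3.62, 0.50 and -0.69 points and to log2 values of 0.029, 0.042, 0.026 and -0.025 (without added W464A), and 51.1% of CpG-poor windows were called in W465A/W796A against WT.

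With 10% of windows, masked contrasts turned to 0.22 points for W465A and 0.0056, 0.016 and 0.012 in log2 (all mutants, W465A, W464A/W465A). On the shifted grid that of W464A/W465A was lost at -0.033. Without the top 0.1% of coverage the sparse log2 contrast over all mutants passed at -0.46 and the masked one of W796A at 0.024. With each CpG counted equally the log2 contrasts over all mutants passed at -0.39 and -0.44 (sparse) and the masked one of W796A at 0.023. With 1 to 2 CpGs within 250 bp, the sparse contrasts were -5.87 points (lost) and -0.47 in log2 (passing) over all mutants and -0.22 for added W464A (lost), the flank contrast of W465A turned to 0.24 points, and masked log2 contrasts of -0.035 (added W464A) and 0.022 (W796A) passed. At sparse A/T-flanked CpGs only, the contrast over all mutants was lost at -5.94 points.

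The shares of called CpG-poor windows were 18.8% with a 25-point minimum (W465A/W796A against W465A), and 0.0211% for both W464A/W465A against W465A and the triple mutant against W464A/W465A when only the compared groups were fitted. With the offset they were 0% (W465A/W796A against W465A), 0.0211%, 0.0211% and 0% (the triple mutant against W465A/W796A).

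With the replicate block the differences keep their size, but the smallest exact permutation p is larger (0.03125 in place of 0.005 for W465A), and no mean-level or contrast call passed. The lost calls were -37.7, -39.2, -57.0 and -17.8 points in the mean level (adjusted p = 0.104 or 0.125). In contrasts of poor and rich windows they were -15.7, -18.5, -23.3 and -4.78 points and -0.42, -0.68, -0.26 and 0.14 in log2, and at sparse CpGs -6.72, -11.1, -8.92 and 2.16 points and -0.49, -0.73, -0.23 and 0.16 in log2. Inside CpG-poor windows they were 5.04 and 5.53 points and -0.19 and 0.14 in log2 for flanks, and -0.037 for masked CpGs. Only WT and W796A met the check of deviations, and no label gives a pairing. With the block in these groups alone 0.0631% of CpG-poor windows were called.

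With a library left out, the mean level of each mutant against WT could again change only in direction. Leaving out each library in turn kept 169 of 180 values of the mean level, 644 of 720 contrasts and 157 of 162 shares on their side. Where it did not, the ranges in the mean level were -4.50 to 9.06 points for W796A minus WT, -43.5 to -34.6 for all mutants, -18.9 to -15.9 for added W464A and 5.92 to 10.4 for W796A. In the contrast of poor and rich windows they were -17.7 to -14.6 points (all mutants), -5.21 to -4.11 (added W464A) and 2.44 to 3.86 (W796A), and in log2 -0.45 to -0.39, -0.31 to -0.23 and 0.11 to 0.17. At sparse CpGs they were -8.42 to -5.19, 1.71 to 2.61 and 0.83 to 1.91 points and -0.50 to -0.43, -0.28 to -0.19 and 0.13 to 0.19 in log2. For flanks they were -1.61 to 0.15 points (W465A), -0.22 to -0.17 in log2 (W465A) and 0.12 to 0.16 (added W464A). For masked CpGs they were -0.63 to 0.084 points (all mutants), -0.27 to 0.087 points (W465A) and, in log2, -0.044 to -0.032 (W464A/W465A), -0.030 to -0.018 (added W464A) and 0.020 to 0.027 (W796A). Shares of called windows ran from 0% to 99.0% (W465A/W796A against WT), 0% to 94.5% (W465A/W796A against W465A) and 0% to 0.0211% (W464A/W465A against W465A).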
